A study of Mus musculus with 15 samples.

Results

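The genes described here are 48 mitotic genes, which encode the kinases, spindle motors, condensins and related proteins that carry a cell through mitosis. They were listed by name with earlier results of these data known, so their counts are descriptions. Only probe sets annotated to a single gene were used, and each gene was represented by its brightest one over the 15 arrays. Such probe sets were found for 47 of the 48 genes, and Ccnb1 was not analysed here. Kif15 lay between 12.7 and 17.5 intensity units on all 15 arrays and did not pass the filter on dim probe sets, which left 46 of 13382 genes tested.

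RNA came from primary male mouse embryonic fibroblasts (MEFs), cultured connective tissue cells of the embryo, in 5 groups of 3 arrays. Control cells were HDAC1 fl/fl MEFs with a scrambled micro-RNA and ethanol. KO cells were the same cells with tamoxifen at 200 nM, which switches on a virally delivered Cre-ERT2 recombinase and deletes Hdac1. Kd cells were HDAC1 fl/fl MEFs with a micro-RNA against Hdac2 and ethanol, and KO/Kd cells carried that micro-RNA and received tamoxifen. The 4 floxed groups thus shared the retrovirus for Cre-ERT2 and a further virus for a micro-RNA. The fifth group, called +/+ cells here, was HDAC1 +/+ MEFs with tamoxifen, and the labels do not state their viruses. Hdac1 intensity was 3557 ± 101 in control and 161 ± 19.8 in KO cells, and Hdac2 was 7051 ± 449 in control and 1025 ± 9.88 in KO/Kd cells (SD, n = 3). The labels do not state whether the 3 arrays of a group were separate cultures; p-values therefore reflect the spread among these arrays only, and that spread may be technical.

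All 10 fibroblast markers passed the filter. Collagen genes and Vim were bright in all groups, whereas Fap and Lum were dim in control cells, at mean intensities of 13.3 and 19.2. Some fibroblast markers differed between groups. Thy1 was at 280 in control, 641 in KO, 127 in Kd, 328 in KO/Kd and 1242 in +/+ cells. In the same order Pdgfra was at 1138, 689, 1011, 1658 and 1896, and Col3a1 at 15625, 10541, 22226, 29894 and 16146. Of 6 macrophage markers 4 passed, and their summed level was 181 in control, 268 in KO, 169 in Kd, 199.9 in KO/Kd and 222 in +/+ cells. Csf1r went from 88.0 in control to 176 in KO cells and Cd68 from 30.5 to 57.2 in KO/Kd cells, while the defining markers Ptprc and Tyrobp did not pass the filter. Of 5 endothelial markers 1 passed, Kdr, which went from 15.7 in control to 77.2 in KO/Kd cells, and the sum was 69.4 in control, 72.4 in KO, 67.7 in Kd, 144 in KO/Kd and 76.4 in +/+ cells. The defining markers Pecam1 and Cdh5 did not pass. Of 5 epithelial markers 4 passed, with sums of 454, 781, 623, 322 and 658 in control, KO, Kd, KO/Kd and +/+ cells, mostly from Krt19 (341 in control and 675 in KO cells). The part of other cell types in the results below was not tested.

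Entry into mitosis is driven by Cdk1, a kinase that works only when bound to an A- or B-type cyclin. Polo-like and Aurora kinases then build the spindle, kinesin motors slide and shorten its microtubules, and condensins compact the chromosomes. The anaphase-promoting complex with its activators Cdc20 and Cdh1 (the product of Fzr1) ends mitosis by marking cyclins and securin (Pttg1) for destruction. Most of these genes are transcribed in a wave in G2 phase and are therefore commonly used to gauge how many cells of a culture are dividing. In RNA from bulk cultures, fewer dividing cells and less RNA per dividing cell cannot be told apart.

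KO/Kd cells had far less RNA of nearly every mitotic gene. Against control cells 45 of 46 genes fell and 1, Pttg1, rose. Over all 13382 genes tested 19.3% fell and 46.2% rose. The median log2 difference of the mitotic genes was -2.11, a 4.30-fold lower level, beside 0.16 over all genes tested. Of the 45 genes, 44 were lower by 2-fold or more and 24 by 4-fold or more, and on 45 genes no array of KO/Kd cells reached the lowest control array. For comparison, 20.5% of all genes had KO/Kd arrays that lay below every control array. All log2 differences are on the scale log2(intensity + 16), which understates changes of dim genes, and p-values are from limma, adjusted over all genes tested.

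Scaling moved the all-gene value, which was -0.02 after quantile normalization and -0.13 with each array centred on its median. With these settings 33.4% and 43.6% of all genes fell and 32.2% and 28.5% rose, and the median of the mitotic genes was -2.32 and -2.40.

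**Figure D1:**
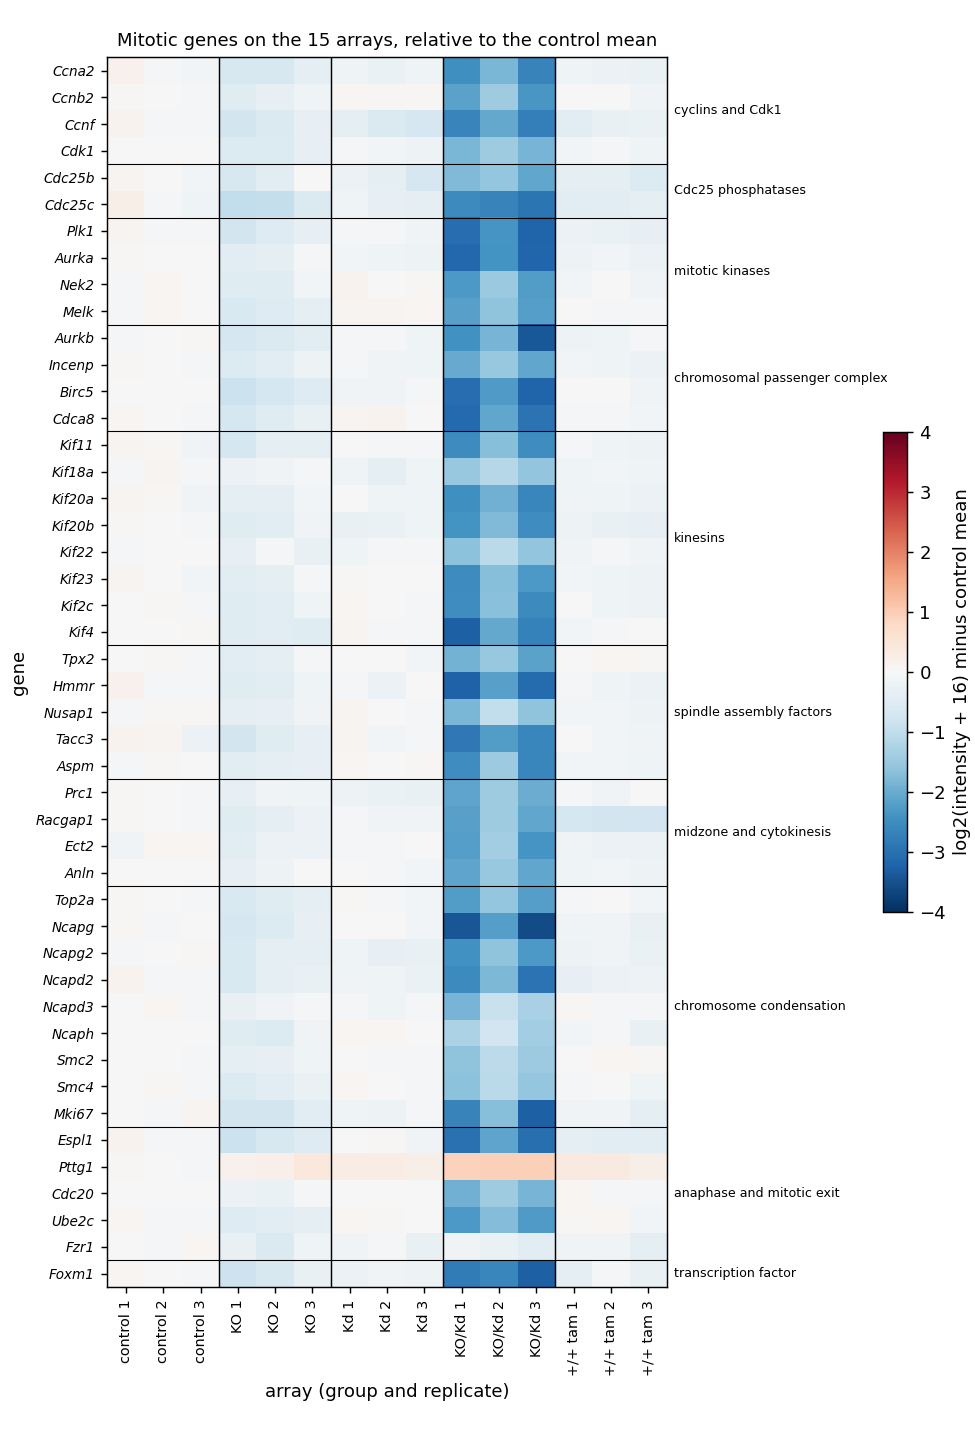
Each row is 1 of the 46 mitotic genes tested, ordered by role, and each column 1 of the 15 arrays; colour gives log2(intensity + 16) minus the mean of the 3 control arrays, blue for lower and red for higher. The 3 KO/Kd columns are blue except for Pttg1, which is higher there, and Fzr1, which is near 0. The blue is paler for genes with smaller differences, such as Ncaph (-1.14).

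Among the cyclins and their kinase, Cdk1 was measured at 9085, 8994 and 9063 in control cells and at 2561, 3395 and 2467 in KO/Kd cells. The groups were far apart, and the difference was -1.70 ± 0.10 (log2 ± SE; adjusted p = 2.63e-10), a 3.24-fold lower level. Kd cells (8590, 8330 and 7942) and +/+ cells (8476, 8575 and 7984) stayed close to control, and KO cells were in between at 6232, 6227 and 7170. Ccna2, which encodes cyclin A2, fell by 2.31 in KO/Kd cells, and Ccnb2, which encodes cyclin B2, fell by 1.96. Ccnf encodes cyclin F, a subunit of a ubiquitin ligase, and fell by 2.47. The Cdc25 phosphatases remove the inhibitory phosphates from Cdk1. Cdc25c went from 481, 391 and 357 in control to 55.9, 50.2 and 40.02 in KO/Kd cells, a difference of -2.72 ± 0.12, and Cdc25b fell by 1.79.

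Mitotic kinases were among the genes with the largest differences. Plk1, the polo-like kinase of spindle assembly and cytokinesis, was at 2672, 2437 and 2399 in control cells. In KO/Kd cells it was at 289, 475 and 254, which is -2.87 ± 0.16 on the log2 scale (adjusted p = 1.28e-10). Aurka encodes the Aurora kinase of centrosomes and spindle poles. Its intensities of 2374, 2252 and 2244 in control contrasted with 244, 421 and 241 in KO/Kd cells, a 7.49-fold lower level (log2 difference -2.91 ± 0.15). KO cells showed 1667, 1756 and 2152, Kd cells 2129, 2038 and 1990, and +/+ cells 1979, 2110 and 1943. The control arrays lay just above those of KO, Kd and +/+ cells, which overlapped, and the KO/Kd arrays lay far below all of them. Nek2, a centrosome kinase, and Melk fell by 2.00 each.

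The chromosomal passenger complex corrects faulty attachments of chromosomes to the spindle and consists of Aurora B (Aurkb), Incenp, survivin (Birc5) and borealin (Cdca8). Birc5 went from 6607, 6362 and 6436 in control to 763, 1326 and 694 in KO/Kd cells (log2 difference -2.84 ± 0.16, adjusted p = 2.24e-10). Cdca8 was at 3431, 3278 and 3113 in control and at 362, 768 and 404 in KO/Kd cells (-2.72 ± 0.19). Aurkb was at 2337, 2474 and 2550 in control and at 441, 658 and 221 in KO/Kd cells (-2.56 ± 0.23). Its KO/Kd arrays were spread more widely than those of Birc5, and all lay below control. Incenp, the scaffold of the complex, fell by 1.86. All 4 subunits thus fell, with values from -2.84 to -1.86.

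Kinesins are motors that walk along microtubules or shorten them. All 8 that were tested fell in KO/Kd cells, with a median of -2.22. Kif11, the motor that pushes spindle poles apart, was at 1896, 1814 and 1588 in control and at 296, 532 and 303 in KO/Kd cells (-2.23 ± 0.16, adjusted p = 3.39e-09). Kif4, a chromosome-arm and midzone kinesin, differed by -2.67 ± 0.19 and Kif18a, which limits microtubule length, by -1.41 ± 0.10. Kif20a, Kif23 and Kif20b, which act at the midzone during cytokinesis, differed by -2.33, -2.17 and -2.21. Kif2c, a microtubule depolymerase, differed by -2.23 and Kif22, which pushes chromosome arms, by -1.44.

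The 5 spindle assembly factors also fell. Hmmr was the lowest of them, from 1878, 1573 and 1589 in control to 162, 363 and 184 in KO/Kd cells (-2.83 ± 0.19, adjusted p = 1.95e-09). Tacc3, a spindle stabiliser, Aspm, a spindle pole protein, Tpx2, the activator of Aurora A, and Nusap1, which bundles microtubules, stood at -2.58, -2.18, -1.85 and -1.47. Of the midzone and cytokinesis genes, Prc1 cross-links midzone microtubules, Racgap1 and Ect2 control the GTPase RhoA at the cleavage plane, and Anln encodes the scaffold anillin. These 4 lay close together, between -1.99 and -1.84.

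Chromosome condensation genes varied more widely, from -3.07 to -1.14. Ncapg, a subunit of condensin I, had the largest difference among the probe sets chosen for the 46 genes, with 1734, 1580 and 1672 in control and 139, 352 and 125 in KO/Kd cells (-3.07 ± 0.24, adjusted p = 7.77e-09). Smc2 and Smc4, the ATPase core shared by both condensins, differed by -1.38 and -1.42, and the condensin I subunit Ncaph by -1.14. Ncapg2 and Ncapd3, subunits of condensin II, differed by -2.12 and -1.35, and Ncapd2 of condensin I by -2.43. Top2a, the topoisomerase that untangles sister chromatids, was at 8010, 7608 and 7524 in control and at 1630, 2636 and 1670 in KO/Kd cells (-1.99 ± 0.13). Mki67, which encodes the proliferation marker Ki-67 of the chromosome surface, was at 7318, 6884 and 7832 in control and at 1127, 2244 and 751 in KO/Kd cells (-2.55 ± 0.25, adjusted p = 1.33e-07).

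Genes of anaphase and mitotic exit held the exceptions. Espl1 encodes separase, the protease that opens cohesin rings, and went from 851, 749 and 741 to 84.7, 166 and 83.2 (-2.70 ± 0.17). Cdc20 was at 7665, 7519 and 7419 in control and at 1966, 2777 and 2058 in KO/Kd cells (-1.74 ± 0.10), and Ube2c, the ubiquitin-conjugating partner of the anaphase-promoting complex, fell by 2.09. Pttg1 encodes securin, the inhibitor of separase. It was at 5037, 4837 and 4778 in control and at 9172, 9426 and 9489 in KO/Kd cells, without overlap (0.94 ± 0.07, adjusted p = 6.63e-09). Pttg1 thus went opposite to separase and to the rest of the set. A further Pttg1 probe set with a mean intensity of 1790 differed by 1.02 in the same comparison, and a dim one with a mean of 29.7 by 0.14.

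Fzr1, which encodes the late mitotic and G1 activator Cdh1, was at 962, 895 and 995 in control and at 857, 793 and 682 in KO/Kd cells (-0.29 ± 0.11, adjusted p = 0.0269). This call ended without control replicate 1 (adjusted p = 0.0632), control replicate 3 (0.0849) or KO/Kd replicate 3 (0.138). Foxm1, the transcription factor that drives many G2 genes, was at 771, 724 and 679 in control and at 90.4, 105 and 60.6 in KO/Kd cells (-2.89 ± 0.15, adjusted p = 6.39e-11).

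**Figure D2:**
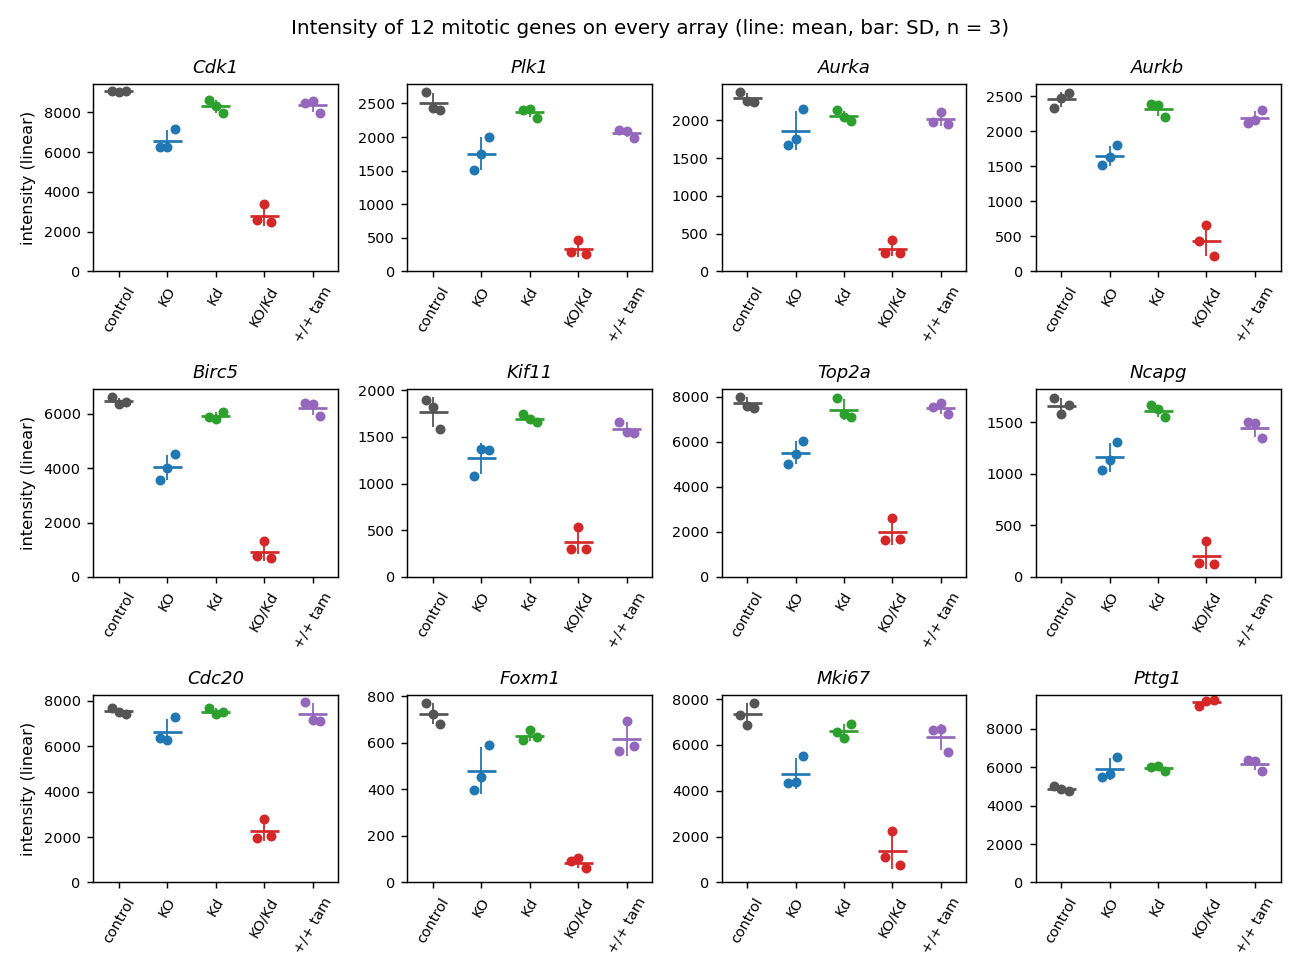
Linear intensity on each of the 15 arrays for 12 mitotic genes, with the mean as a line and the SD as a bar (n = 3 per group); KO/Kd are cells with both perturbations and +/+ tam are Hdac1 +/+ cells with tamoxifen. In 11 panels the KO/Kd arrays lie below all other arrays, and in the Pttg1 panel, at 9172 to 9489, they lie above them.

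The KO/Kd arrays did not fall equally. Replicate 2 had the highest value of the 3 arrays for 43 of 46 genes. Leaving aside Pttg1 and Fzr1, an exclusion made after their values were seen, the median gene was at 18.2%, 30.7% and 19.0% of the control mean on KO/Kd replicates 1, 2 and 3. All 3 arrays were below every control array for those 44 genes. Without replicate 2 the median log2 difference of the 46 genes was -2.33, and without replicate 1 it was -1.98. The median intensity of the whole array was 29.1, 30.7 and 29.9 on these replicates, and 24.1 to 25.1 in control.

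Measured within the knockdown, tamoxifen with deletion of Hdac1 gave nearly the same picture. KO/Kd cells had received tamoxifen and Kd cells ethanol, so tamoxifen and deletion cannot be told apart here. In KO/Kd against Kd cells 44 of 46 genes fell and 1, Pttg1, rose (0.65 ± 0.07), where 20.4% of all genes fell and 42.9% rose. The median was -2.04, beside 0.13 over all genes. Ncapg, Cdca8 and Plk1 had the largest differences, -3.02, -2.81 and -2.79. Fzr1 did not pass (-0.11, adjusted p = 0.386, 95% confidence interval -0.34 to 0.12). Measured within the deletion, knockdown of Hdac2 also lowered the set. In KO/Kd against KO cells, which had both received tamoxifen, 44 genes fell and 1, Pttg1, rose (0.67 ± 0.07), against 20.6% and 36.1% of all genes. The median was -1.70, beside 0.08 over all genes, and the largest differences were those of Aurka (-2.60), Ncapg (-2.55) and Hmmr (-2.47).

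Either perturbation by itself gave much smaller differences. In KO against control cells 19 of 46 genes fell and 1, Pttg1, rose (0.26 ± 0.07), where 4.64% of all genes fell and 19.5% rose. The median was -0.39, a 1.31-fold lower level, beside 0.08 over all genes. No gene reached a 2-fold difference. Pttg1 also rose in Kd and +/+ cells against control (0.28 and 0.33), and in KO against +/+ cells it differed by -0.07. Of the 26 genes without a call all 26 had negative values, and on 40 genes all 3 KO arrays lay below all 3 control arrays, as they did for 7.36% of all genes. The +/+ arrays also lay wholly below control on 23 genes, and the Kd arrays on 15. In +/+ against control cells 39 of the 42 genes without a call were negative. Against +/+ cells the KO arrays lay wholly below on 21 genes and wholly above on 1. No share of all genes is given for these further counts.

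Cdc25c showed the largest difference in KO cells, with arrays at 195, 202 and 265 against 357 to 481 in control (-0.85 ± 0.12, adjusted p = 0.00013). Birc5 followed at 3579, 3995 and 4521 against 6362 to 6607 in control (-0.69 ± 0.16, adjusted p = 0.00594), and Espl1 at 425, 490 and 541 against 741 to 851 (-0.67 ± 0.17, adjusted p = 0.00834). Among the other genes that fell were Foxm1 (-0.59), Ccna2 (-0.56), Plk1 (-0.52), Top2a (-0.49), Kif11 (-0.48) and Cdk1 (-0.47). Arrays of Mki67 in KO cells were at 4355, 4363 and 5524, below the control arrays of 6884 and above, yet its difference of -0.64 ± 0.25 did not pass (adjusted p = 0.0753). Neither did Aurkb at 1520, 1630 and 1805 (-0.57, adjusted p = 0.0888), Ncapg at 1036, 1136 and 1312 (-0.52, adjusted p = 0.127), Aurka (-0.31, adjusted p = 0.158) or Cdc20 at 6371, 6267 and 7291 (-0.18, adjusted p = 0.223). By role, 3 of 4 cyclin and Cdk1 genes, 5 of 9 condensation genes and 2 of 4 passenger complex subunits fell. Of 8 kinesins 1 fell, Kif11, whose call ended in 9 of 17 alternatives, and of 4 midzone and cytokinesis genes 0. At an unadjusted p under 0.05 limma gave 4 of the 8 and 1 of the 4, and all 12 values were negative. No share of all genes at that unadjusted threshold was computed. Differences between roles were not tested.

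The 3 KO arrays differed in overall brightness in the same order as in the mitotic genes. KO replicate 3 had the highest value for 41 of 46 genes and replicate 1 the lowest for 40, and the array medians were 24.97, 27.3 and 28.6 for replicates 1, 2 and 3. The part of array brightness in the KO result was not tested. With each array centred on its median, 39 genes fell and 1 rose, and after quantile normalization 37 and 1. These scalings moved the all-gene median of KO against control from 0.08 to -0.05 and -0.01, and the shares of all genes that fell and rose to 15.9% and 11.4%, and to 14.4% and 13.9%. With arrayWeights, whose fit stopped before it converged, 4 genes fell. Without control replicate 1, control replicate 2, KO replicate 1 or KO replicate 2 the number that fell was 8, 12, 10 and 11.

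Kd cells stayed close to control. Of 46 genes 1 fell, Ccnf (692, 600 and 608 to 486, 416 and 394; -0.54 ± 0.15, adjusted p = 0.0284), and 1 rose, Pttg1 (5993, 6038 and 5804 in Kd cells; 0.28 ± 0.07, adjusted p = 0.0166). Over all genes 3.02% fell and 7.5% rose, and the median was -0.07 for the set and 0.04 over all genes. Plk1 (2406, 2411 and 2283), Top2a (7948, 7234 and 7125) and Ncapg (1665, 1625 and 1550) had Kd arrays that overlapped control. Birc5 in Kd cells, at 5879, 5813 and 6076, lay below its control arrays but did not pass (-0.13, adjusted p = 0.724). The 2 calls rest on few arrays: that of Ccnf ended in 6 of 17 alternatives and that of Pttg1 in 6 of 17, and without control replicate 2, control replicate 3 or Kd replicate 2 no gene of the set passed.

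**Figure D3:**
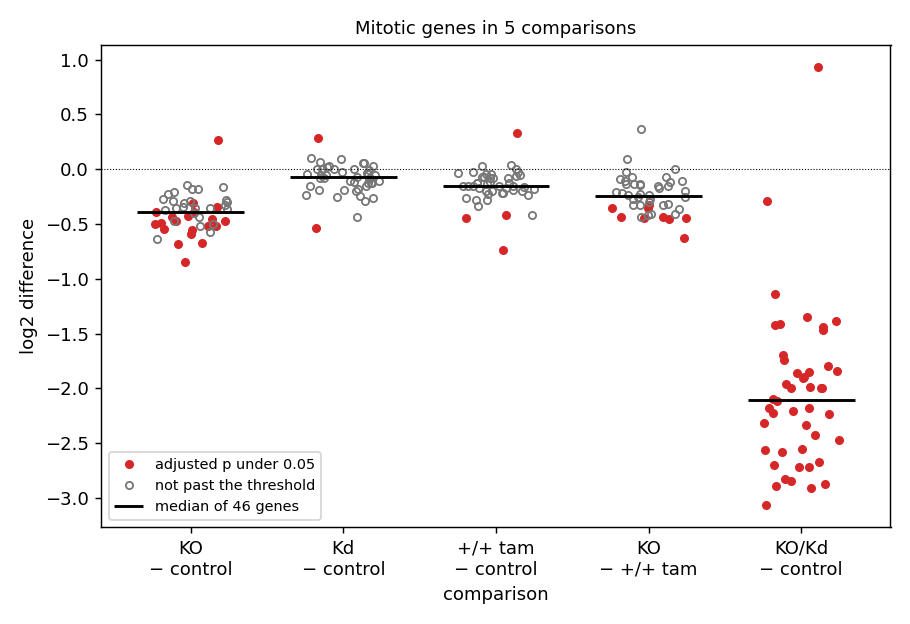
Each point is the log2 difference of 1 of the 46 mitotic genes in the comparison named below it, filled red where limma's adjusted p was under 0.05, and the bar is the median. The medians are -0.39, -0.07, -0.15, -0.25 and -2.11 from left to right, and each red point above 0 is Pttg1.

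The 2-by-2 layout of the floxed groups allowed a direct test of whether tamoxifen with deletion acted differently with and without the knockdown. Below, deletion stands for both together. The effect of deletion in Kd cells minus its effect in cells with the scrambled micro-RNA passed for 45 of 46 genes, 44 negative and 1, Pttg1, positive. Over all genes the shares were 17.1% and 25.7%. The median of this interaction was -1.63, beside 0.06 over all genes. Adding the single effects of KO and Kd on the log2 scale gives a median of -0.47, and the measured KO/Kd difference was -2.11. The interaction was largest for Ncapg (-2.51 ± 0.33, adjusted p = 1.55e-05), Aurka (-2.44 ± 0.21) and Hmmr (-2.36 ± 0.27). It was smallest among the falling genes for Ncaph (-0.81 ± 0.19, adjusted p = 0.00234). Fzr1 did not pass (0.24, adjusted p = 0.238).

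**Figure D4:**
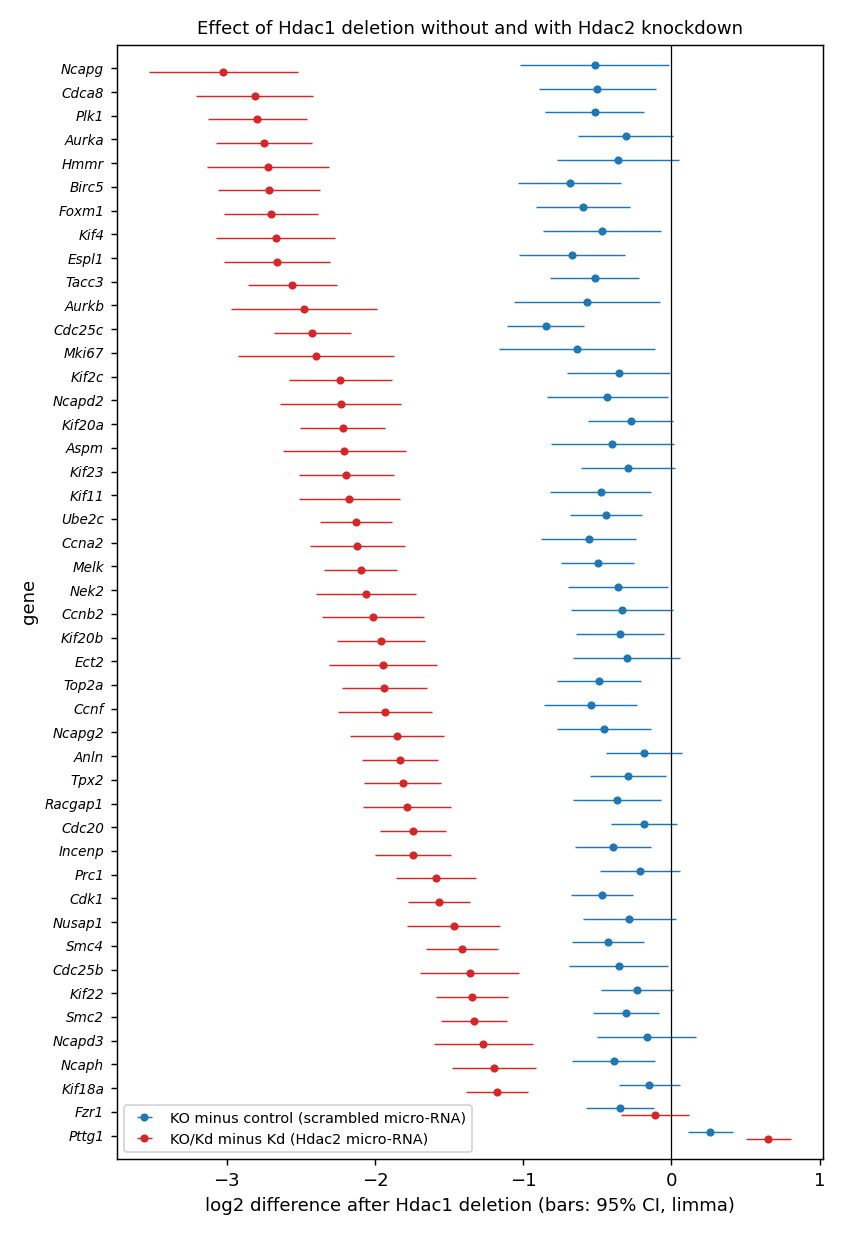
For each mitotic gene the blue point is the log2 difference of KO minus control and the red point that of KO/Kd minus Kd, with bars for the 95% confidence interval of the limma fit; the pairs share no arrays. Red points lie left of the blue ones for 44 genes, and for Fzr1 and Pttg1 they lie to the right. KO and KO/Kd cells had received tamoxifen, and control and Kd cells ethanol.

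KO cells had received tamoxifen and control cells had not, so +/+ cells with tamoxifen give a second reference. These cells differ from the floxed cells in origin, and tamoxifen and cell origin cannot be told apart in their comparison with control. In +/+ against control cells 3 genes fell and 1, Pttg1, rose (6392, 6326 and 5783 in +/+ cells; 0.33 ± 0.07, adjusted p = 0.00229), beside 6.93% and 21.5% of all genes. Racgap1 fell most, from 4245, 4209 and 3964 to 2542, 2471 and 2409 (-0.74 ± 0.14, adjusted p = 0.000921), so that its +/+ arrays were below its KO arrays of 2970, 3138 and 3523. Cdc25b was at 303, 283 and 260 in control and at 212, 211 and 187 in +/+ cells (-0.44, adjusted p = 0.0453), and Cdc25c at 292, 301 and 310 in +/+ cells (-0.42, adjusted p = 0.018). The call of Cdc25b ended in 9 of 17 alternatives, among them each of the 6 that left out an array, with adjusted p up to 0.132, and that of Cdc25c in 3 of 17. The median was -0.15, beside 0.08 over all genes. With each array centred on its median 13 genes fell and 1 rose, beside 16% and 12.3% of all genes.

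Against +/+ cells KO cells had 9 lower genes and 0 higher ones, where 11.3% of all genes were lower and 12.8% higher, and the median was -0.25 beside -0.01. At an unadjusted p under 0.05 the limma fit gave 15 in either direction. The share of all genes under that threshold was not computed, so this count cannot be set against a background. The 9 genes were Birc5, Cdc25c, Cdk1, Melk, Smc2, Smc4, Tacc3, Top2a and Ube2c, and all 9 were among the 19 that fell against control, a comparison that shares the KO arrays. Birc5, at 6413, 6352 and 5916 in +/+ cells, was higher there than on every KO array (-0.63 ± 0.16, adjusted p = 0.0095). Melk (-0.46 ± 0.12, adjusted p = 0.00866), a kinase related to AMPK, was at 1364, 1329 and 1284 in +/+ and 893, 954 and 1041 in KO cells. Top2a differed by -0.44 (7534, 7704 and 7224 in +/+ cells) and Ube2c by -0.44. Of the 9 calls 3 held in all 17 alternatives, those of Birc5, Melk and Ube2c. The call of Top2a ended in 6 of 17, with limma's adjusted p up to 0.598. A further Top2a probe set with a mean intensity of 273 differed by 0.145. Without KO replicate 1 or KO replicate 2, 3 genes stayed lower, and without +/+ replicate 1 or +/+ replicate 2, 5 and 4. KO/Kd cells had 44 lower genes and 1 higher one, Pttg1 (0.60), than +/+ cells, where 23.5% and 38.2% of all genes were lower and higher, with a median of -1.95.

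Promoter sequences are shown because these genes moved together. Many genes of late cell cycle phases carry a cell cycle homology region, the hexamer TTTGAA bound by the MuvB core of the DREAM complex, and CCAAT boxes bound by NF-Y. The RefSeq table for build GRCm38.p6 held windows from 250 bases before to 50 bases after the annotated start for 40 of the 48 genes. On either strand TTTGAA (reverse complement TTCAAA) was present in 29 of 40 genes (72.5%), beside 20.2% of all 27025 genes in the table. CCAAT (reverse complement ATTGG) was present in 27 of 40 (67.5%), beside 41.1%. Both motifs occurred in 57.5% of the 40 genes and in 8.97% of all genes. Matches to the motifs can share a base at their ends, and a match describes the letters only, not binding.

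The last 110 bases before the start are printed for Cdk1, Cdc20, Top2a and Ncapg, which fell 3.24-fold to 8.37-fold in KO/Kd cells, for Birc5, which fell 7.16-fold, and for Pttg1 and Fzr1, which did not follow the set. Capitals mark matches to either motif on either strand, and each sequence is written 5′ to 3′ along its gene.
Cdk1, chr10:69352913-69353022, minus strand: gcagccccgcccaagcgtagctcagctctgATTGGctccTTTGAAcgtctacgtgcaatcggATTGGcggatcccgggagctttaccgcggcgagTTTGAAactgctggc
Cdc20, chr4:118437344-118437453, minus strand: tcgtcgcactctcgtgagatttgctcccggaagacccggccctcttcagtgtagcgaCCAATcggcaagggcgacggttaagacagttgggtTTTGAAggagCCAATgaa
Top2a, chr11:99024190-99024299, minus strand: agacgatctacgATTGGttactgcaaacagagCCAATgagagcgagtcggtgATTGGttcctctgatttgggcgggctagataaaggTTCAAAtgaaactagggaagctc
Ncapg, chr5:45669815-45669924, plus strand: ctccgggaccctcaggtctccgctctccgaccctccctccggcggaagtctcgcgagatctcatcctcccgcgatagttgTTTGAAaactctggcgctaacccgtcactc
Birc5, chr11:117849127-117849236, plus strand: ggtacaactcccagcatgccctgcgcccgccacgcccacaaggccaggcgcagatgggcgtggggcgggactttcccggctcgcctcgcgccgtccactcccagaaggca
Pttg1, chr11:43425982-43426091, minus strand: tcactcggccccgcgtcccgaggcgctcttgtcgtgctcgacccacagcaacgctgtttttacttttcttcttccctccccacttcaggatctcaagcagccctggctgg
Fzr1, chr10:81378371-81378480, minus strand: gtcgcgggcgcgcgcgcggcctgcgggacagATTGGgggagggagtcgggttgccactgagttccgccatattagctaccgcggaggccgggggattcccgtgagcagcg

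In Cdk1 and Cdc20 the TTTGAA hexamer nearest the start began at positions -15 and -18, counted back from the base before the start as -1, with a CCAAT box further upstream. Top2a held its nearest match at -23 on the reverse strand and Ncapg at -30. Plk1 and Aurka held TTTGAA just downstream of the annotated start, from positions 31 and 33. Kif20b, which fell 4.61-fold and is not printed, held no match in the 110 bases before the start. It held TTTGAA downstream, from positions 8 and 14. In the 110 bases Birc5 held neither motif although it fell, Fzr1 held a CCAAT box on the reverse strand, and Pttg1 held neither. Birc5 was not alone in this. In the full windows, from 250 bases before to 50 after the start, 7 of 40 genes (17.5%) held neither motif, beside 47.7% of all genes. These were Pttg1 and the falling genes Birc5, Tacc3, Melk, Nusap1, Kif18a and Ncaph, whose differences ran from -2.84 (Birc5) to -1.14 (Ncaph). Of the tested genes, the 28 with TTTGAA had a median difference of -2.18 in KO/Kd cells (range -3.07 to -1.35), and the 10 without it -1.63 (range -2.84 to 0.94). The 26 with CCAAT had a median of -2.14 and the 12 without it -1.95. The 10 genes without TTTGAA include Pttg1 (0.94) and Fzr1 (-0.29). Whether either motif plays a part in these differences was not tested.

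Genes of the same pathway outside the set gave a similar picture. Of 62 further G2 and mitosis genes, such as those of the kinetochore and the checkpoint, 54 fell and 2 rose in KO/Kd against control cells (median -1.89). The lowest were the kinetochore genes Ska1 (-3.24) and Spc24 (-3.03) with Cdca2 (-3.08) and Iqgap3 (-3.06), and the 2 that rose, named here after their values were seen, were Psrc1 (1.45) and Cdc16 (0.26). In KO cells 29 fell and 1 rose, and in Kd cells 2 and 1. Of all genes 19.3% fell and 46.2% rose in KO/Kd, 4.64% and 19.5% in KO and 3.02% and 7.5% in Kd cells. Of 39 replication genes 38 fell and 0 rose in KO/Kd (median -1.66), 30 and 0 in KO, and 0 and 0 in Kd cells. In Kd cells 3 of the 39 passed limma at an unadjusted p under 0.05, a threshold for which no share of all genes was computed. Of 15 factors of the DREAM, MuvB, B-MYB and NF-Y complexes, which bind the motifs above, 6 fell and 4 rose in KO/Kd cells (median -0.09), beside the 19.3% and 46.2% of all genes. Rbl1 (p107; -3.04), Mybl2 (B-MYB; -2.52) and Lin9 (-1.19) fell, whereas Rbl2 (p130), the pocket protein of resting cells, rose by 1.92. Cdkn1a, which encodes the Cdk inhibitor p21, was at 2811 ± 98.5 in control, 8308 ± 766 in KO, 2646 ± 55.5 in Kd, 12006 ± 465 in KO/Kd and 3298 ± 353 in +/+ cells (SD, n = 3). By limma it rose in KO (1.55) and KO/Kd cells (2.09) and did not pass in Kd (-0.09, adjusted p = 0.604) or +/+ cells (0.22, adjusted p = 0.0512). Its part in the levels of the mitotic genes was not tested.

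Probe sets not chosen for the set were in most cases of the same sign. The 30 genes with further probe sets past the filter had 56 of them, and in KO/Kd against control 53 had the sign of the chosen one. Of the 36 with a mean intensity of 100 or more, all 36 did, with a median of -2.30. The 20 dimmer ones had a median of -0.51. Kif22 differed between probe sets, at -1.44 for the chosen one and -2.89 and -3.10 for the others. Further probe sets of Kif2c (-3.18) and Hmmr (-3.09) also had larger differences than the -3.07 of Ncapg, so the order of the genes depends on the probe set.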

How the data were processed

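RNA of mouse embryonic fibroblasts was hybridised to 15 Affymetrix arrays. The deposited values are linear intensity values, 1 per probe set, and no label, protocol or header used here states their normalization. Of 45037 probe sets, 34945 had 1 gene symbol in the platform annotation, 932 had several and 9160 none; 34741 matched the RefSeq gene table by Entrez number and 0 symbols changed. Log2(intensity + 16) was taken. Probe sets above the 40th percentile of their array on at least 3 arrays were kept, with the brightest for each gene, which left 13382 of 18193 genes. All 15 arrays entered 1 limma fit (limma 3.58.1, R 4.3.3) with a coefficient per group and 10 residual degrees of freedom, Benjamini-Hochberg adjustment over all genes and a threshold of 0.05, for 9 comparisons. The fit was tested on simulated data.

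The mitotic genes and the other gene lists were chosen with earlier results of these data known, so their counts are descriptions. Values on every array are given for a fixed set of 11 measured genes and for the 3 genes with the largest difference in a comparison. Kd against control was not among the comparisons of this rule. Array values of Fzr1, Pttg1 and Ccnf are also given, although the rule did not name these genes. Genes outside the set are named by the largest difference of their list, up to 4. Promoter windows came from RefSeq, GRCm38.p6. Alternatives were the pseudocount, the filter, 2 scalings, moderation with trend, array weights, the replicate block, the groups fitted, the probe sets and leaving out each array.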

Additional observations from a re-analysis of the deposited data

Results flagged for a closer look

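For 45 of 46 mitotic genes the effect of Hdac1 deletion differed between Kd cells and cells with the scrambled micro-RNA, by limma's interaction term with Benjamini-Hochberg adjustment over 13382 genes. The largest adjusted p of the 45 was 0.00491, for Pttg1. Each value below is the log2 difference of the deletion effects, with the knockdown minus without it. Deletion here includes tamoxifen, since the floxed cells without deletion received ethanol. For chromosome condensation the values were Ncapg (-2.51), Ncapd2 (-1.80), Mki67 (-1.76), Top2a (-1.45), Ncapg2 (-1.40), Ncapd3 (-1.10), Smc2 (-1.03), Smc4 (-0.99) and Ncaph (-0.81). The group mitotic kinases held Aurka (-2.44), Plk1 (-2.28), Nek2 (-1.70) and Melk (-1.60). The group spindle assembly factors held Hmmr (-2.36), Tacc3 (-2.04), Aspm (-1.81), Tpx2 (-1.52) and Nusap1 (-1.18). The group chromosomal passenger complex held Cdca8 (-2.31), Birc5 (-2.03), Aurkb (-1.91) and Incenp (-1.35). Kinesins gave Kif4 (-2.20), Kif20a (-1.94), Kif23 (-1.90), Kif2c (-1.88), Kif11 (-1.70), Kif20b (-1.61), Kif22 (-1.12) and Kif18a (-1.03). The transcription factor gave Foxm1 (-2.11). The group anaphase and mitotic exit held Espl1 (-1.99), Ube2c (-1.69), Cdc20 (-1.56) and Pttg1 (0.39). Cyclins and Cdk1 gave Ccnb2 (-1.68), Ccna2 (-1.56), Ccnf (-1.39) and Cdk1 (-1.10). The group midzone and cytokinesis held Anln (-1.65), Ect2 (-1.64), Racgap1 (-1.42) and Prc1 (-1.38). The group Cdc25 phosphatases held Cdc25c (-1.58) and Cdc25b (-1.01). Pttg1 was the gene with a positive value, and the calls of all 45 stayed past the threshold in the 23 alternatives, except that Aurkb was fitted in 22.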

How the results depend on the processing

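In the comparisons of KO/Kd cells with control, Kd, KO and +/+ cells and in the interaction, 45 or 46 mitotic genes passed and the alternatives listed here kept these counts within 1.5 times and all directions. Leaving out an array gave 45 to 46 genes for KO/Kd against control. The smaller differences moved. KO against control gave 20 genes, +/+ against control 4, Kd against control 2 and KO against +/+ cells 9. Quantile normalization gave 38, 10 and 5 for the first 3, and arrays centred on their medians 40, 14 and 5. Of all 13382 genes 3235, 3808 and 1408 passed in these 3 comparisons in the main fit, and 3227 in KO against +/+. Quantile normalization gave 3790, 3953 and 2082 of all genes for the first 3, and centred arrays 3654, 3785 and 1995. With arrayWeights, whose fit stopped before convergence, the mitotic counts were 5, 7 and 5, and KO against +/+ gave 3. There 1276, 5283, 2807 and 1601 of all genes passed. Fitting only the groups compared gave 35, 11 and 6 mitotic genes, and 20 for KO against +/+. Of all genes 2640, 4443, 2009 and 2872 passed with that fit. Kd against control fell to 1 gene with a pseudocount of 1, with probe sets averaged per gene, and without the probe sets that can match several transcripts. Leaving out 1 array at a time gave 9 to 21 genes for KO against control, 0 to 1 for Kd, 2 to 3 for +/+ and 3 to 11 for KO against +/+. The cause of these moves was not tested. No call of a mitotic gene reversed its direction in these alternatives, which were not run for single genes of the other lists.

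On average the replicate numbers of the titles showed no pairing of the arrays. Same-numbered arrays of different groups had a mean correlation of their deviations of -0.01 over 30 pairs, and 4 pairs were over 0.1. For 60 pairs with different numbers the mean was 0.0043, and 2 were over 0.1. Pairing of single arrays was not tested. With the replicate number as a block, 19 genes passed in KO against control, 2 in Kd, 46 in KO/Kd and 3 in +/+ against control, where Cdc25b was lost, and 9 in KO against +/+ cells. The 3 arrays per group, and signal close to background for dim probe sets, limit the precision.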
